A study of Sus scrofa with 30 samples.

Results

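Of 13103 genes measured in pig embryos, 112 differed by at most 2-fold between Days 8 and 10 of pregnancy and were lower on Day 12. By then these 112 genes were at most at 0.25 of both earlier means. They were chosen from the read counts, scaled to CPM (counts over the embryo's total, times 1000000) and averaged over the 10 embryos of a day. A gene was taken when its Day 8 and Day 10 means were both at least 2 CPM and within 2-fold of each other, and its Day 12 mean was at most 0.25 of both. The rule allowed up to 300 genes, ranked by Day 10 mean, and 112 (0.855% of the table) met it, so that all were kept. The rule thus used the day means themselves, and the levels by day given here describe the selection and carry no test.

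The embryos came from German Landrace x Pietrain gilts, several for each day, inseminated with semen of a single Pietrain boar. Each of the 30 libraries was made from the mRNA of 1 whole embryo with embryonic disc and trophectoderm collected on Day 8, 10 or 12, with 5 embryos of each sex per day. The cycles of all gilts had been synchronized with Altrenogest, followed by PMSG and human chorionic gonadotropin. The dams of single embryos are not named, so that littermates could not be told from other embryos of a day and p-values measure the spread between these embryos only. The embryos had 14882265 to 33799980 counts on Day 8, 19773328 to 32476637 on Day 10 and 6068212 to 34002508 on Day 12, where the female d12_f_245 was the smallest library.

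The pig blastocyst hatches, grows as a sphere and then lengthens within hours to a thin filament, mainly by cell movement and remodelling. Its outer layer, the trophectoderm, is an absorptive epithelium that takes up uterine secretions by endocytosis and breaks them down in lysosomes. Lysosomal breakdown of glycolipids needs small activator proteins that lift the lipid from the membrane and present it to the hydrolase, and new hydrolases reach the lysosome on mannose 6-phosphate receptors.

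The 112 genes comprised 107 protein coding genes, 4 long noncoding RNA genes and 1 miscellaneous RNA, and 14 had no symbol beyond LOC and a number. Together they held 3.07 to 3.56% of the counts of a Day 8 embryo (median 3.31%), 2.87 to 3.53% on Day 10 (median 3.26%) and 0.188 to 0.304% on Day 12 (median 0.259%). The Day 12 range lay wholly under that of the earlier days. GM2A and PSAP alone made up 43.2% of the summed Day 10 mean, and the 10 highest genes 65.5%. Of the summed Day 10 mean, 7.94% was left on Day 12, and 11.2% when GM2A and PSAP were left out.

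**Figure D1:**
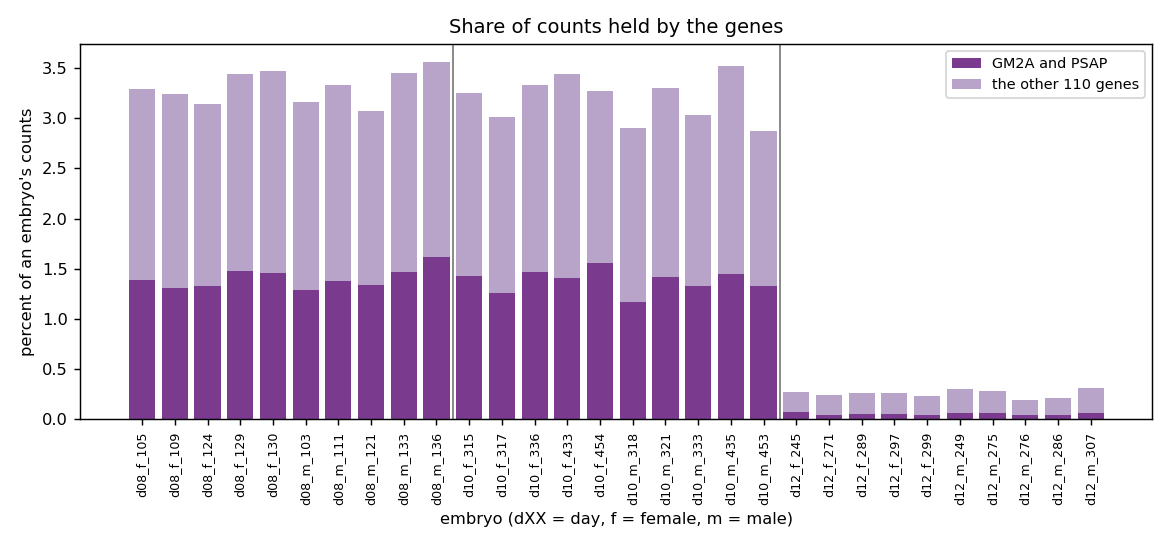
Percent of each embryo's counts held by the genes, 1 bar per embryo, with GM2A and PSAP in dark and the other genes in light. The 20 bars of Days 8 and 10 stand between 2.87% and 3.56%, and the 10 bars of Day 12 between 0.188% and 0.304%.

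Day 12 means were lower than Day 10 means by 4.13-fold or more, with a median of 8.95-fold. The difference was under 8-fold for 49 genes, between 8-fold and 32-fold for 40 and at least 32-fold for 23. Every Day 10 embryo stood above every Day 12 embryo in 103 of the 112 genes, against 5.6% of all genes, and every Day 8 embryo above every Day 12 embryo in 107, against 14.7%. The 9 genes with overlap between Days 10 and 12 were AASS, ADCY1, ALDH3B1, CPLX1, ENPEP, GPR1, LOC110261130, SMPD3 and TTC39B. All 112 were called lower on Day 12 than on Day 10 by edgeR's quasi-likelihood test (FDR under 0.001, log2 change beyond 1), where 8.39% of all genes were lower and 14.9% higher. These counts follow from the choice of the genes.

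Few of the genes were absent on Day 12. Their Day 12 mean was at least 1 CPM for 77 and at least 10 CPM for 39, and 80 had more than 3 counts in every Day 12 embryo. Only FYB, MIOX, ADCY1, EOMES and NANOG had 3 counts or fewer in each of the 10 Day 12 embryos. "Lost" therefore holds for few of them, and "reduced" for most.

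On Day 10 the genes were higher than on Day 8 in 58 cases and lower in 54, within the 2-fold allowed. The rule allowed at most a 2-fold difference between these days, so that a low count of calls follows from the choice of the genes. At the same thresholds 4 were called, where 14.1% of all genes were, and all were higher on Day 10. These were CDS1 (log2 fold change 1.07 ± 0.147 SE), DGKZ (1.02 ± 0.115), LIMA1 (1.11 ± 0.179) and SLC35E4 (1.19 ± 0.156), and none of them was called with library size in place of TMM factors. DESeq2 called 5, all higher on Day 10, and the robust GLM 6, of which ADCY1 and RNASE12 were lower on Day 10. With TMM factors the median log2 change of all genes was 0.03 between Days 8 and 10 and 0.04 between Days 10 and 12. With library size alone these medians were -0.15 and 0.24.

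**Figure D2:**
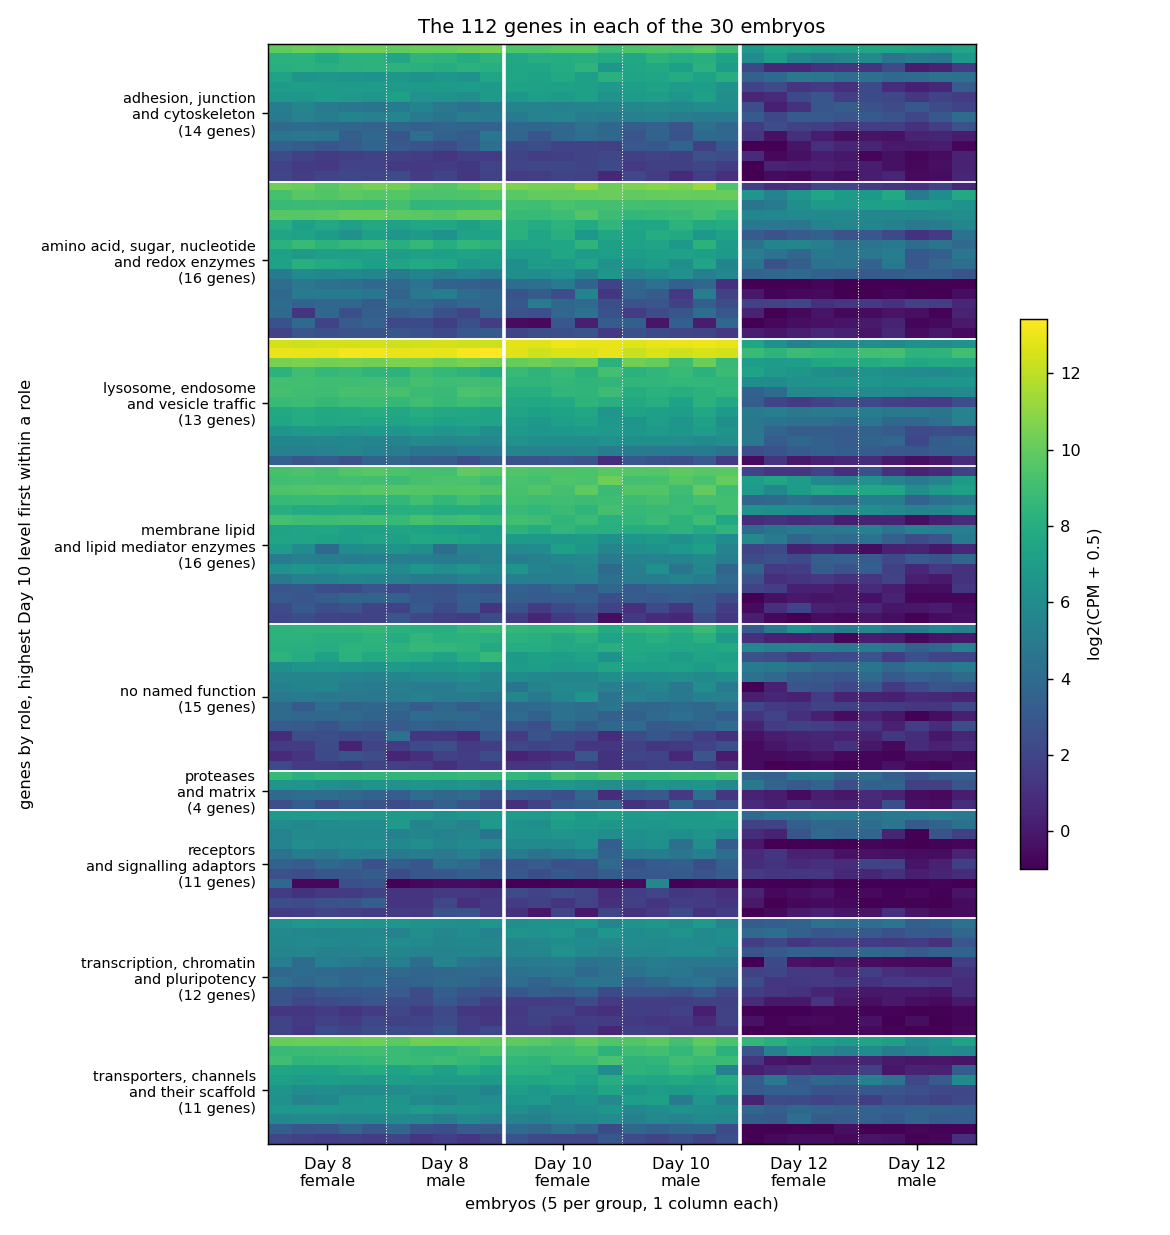
Levels of the 112 genes (rows, grouped by role, the highest Day 10 level first) in the 30 embryos (columns, grouped by day and sex) as log2(CPM + 0.5). The Day 12 columns are darker in every role group, while 39 genes kept a Day 12 mean of at least 10 CPM. ADCY1, among the receptors, had 1240 counts in d10_m_321. It had 297, 96 and 94 in the Day 8 females d08_f_105, d08_f_129 and d08_f_130, and at most 5 in any other embryo.

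Cell type markers changed over the same days. The summed level of 7 trophectoderm markers was 21108 to 25287 CPM on Day 8, 27769 to 46620 CPM on Day 10 and 9127 to 25758 CPM on Day 12. The keratins KRT8 and KRT18 made up most of these sums, so that the sums say little of the other markers. KRT8 had means of 22482 CPM on Day 10 and 10762 CPM on Day 12, and KRT18 15303 and 3774 CPM. Between Days 10 and 12, KRT18, KRT8, CDX2 and TEAD4 were called lower, GATA3 higher, and TFAP2C and ELF3 were not called. The 8 hypoblast markers summed to 527 to 827 CPM on Day 10 and 1183 to 4886 CPM on Day 12, with 6 called higher and 2 not called. The mesoderm markers in the table, EOMES, T and HAND1, summed to 23.2 to 149 CPM on Day 10 and 653 to 1726 CPM on Day 12, with MIXL1 and MESP1 not in the table. HAND1 was called higher, from a mean of 68.4 to 1101 CPM, and the other two were called lower, T from 1.24 to 0.0519 CPM and EOMES, one of the 112, from 2.41 to 0.0342 CPM. The 7 epiblast markers, with NANOG among them, summed to 701 to 1514 CPM on Day 10 and 591 to 1095 CPM on Day 12. Of these, 6 were called lower and 1 higher, namely DNMT3B, whose mean went from 313 to 785 CPM and made up most of the Day 12 sum. None of the 6 leukocyte markers was in the table, and the 3 endometrial epithelium and 2 red cell markers in it summed to at most 9.23 and 11.9 CPM in any embryo. PECAM1, the 1 endothelial marker in the table, had 15.4 to 34.8 CPM on Day 10 and 22.4 to 206 CPM on Day 12. In whole embryos, fewer cells of a type and less RNA per cell cannot be told apart, and the part of these changes in the levels of the 112 genes was not tested.

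Sphingolipid activators stood highest. GM2A (chromosome 16: 71742090-71767872, Sscrofa11.1), the activator that presents GM2 ganglioside to its hydrolase, ranged from 5123 to 5766 CPM on Day 8 (median 5505), from 6873 to 8615 CPM on Day 10 (median 7784) and from 40.3 to 187 CPM on Day 12 (median 67.6). PSAP (chromosome 14: 74734185-74820645), the precursor of the saposins that serve several sphingolipid hydrolases, ranged from 7598 to 11002 CPM on Day 8 (median 8312), from 4836 to 7743 CPM on Day 10 (median 6033) and from 322 to 576 CPM on Day 12 (median 424). The groups of Day 12 did not overlap those of the earlier days for either gene. The highest GM2A value of Day 12, 187 CPM, was in the smallest library, d12_f_245, and the next embryo had 79.5 CPM. GM2A was at 0.981% of its Day 10 mean on Day 12 and PSAP at 7.08%.

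Most listed hydrolases were not called between Days 10 and 12. Of the 51 genes listed as lysosomal hydrolases and activators in the table, 8 were called lower on Day 12, GM2A and PSAP among them, and 8 higher. Their median log2 change was 0.14 against 0.04 for all genes. The list does not hold NAAA, a lysosomal hydrolase described below. NAAA was also called lower on Day 12, with a log2 change of -6.14. HEXA, a subunit of the hexosaminidase that GM2A serves, had a Day 10 mean of 423 CPM and a Day 12 mean of 319 CPM. Its log2 change of -0.59 ± 0.13 SE was under the size called. GLA and GALC, hydrolases served by saposins, had 150 and 192 CPM on Day 10 and 136 and 130 CPM on Day 12, with log2 changes of -0.32 and -0.72, and were not called either. The cathepsin CTSL was called higher, from 399 to 5386 CPM.

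Other genes of the lysosomal and sorting system were among the 112. IGF2R, the large mannose 6-phosphate receptor that also clears IGF2, ranged from 426 to 650 CPM on Day 8, from 244 to 479 CPM on Day 10 and from 10.5 to 62.0 CPM on Day 12, and its lowest value was in d12_f_245. TFEB, a transcription factor that drives lysosomal genes, ranged from 12.8 to 15.9 CPM on Day 8, from 15 to 28.1 CPM on Day 10 and from 1.0 to 3.49 CPM on Day 12. The Day 12 embryos were lowest in both genes, without overlap. Of the 40 lysosomal membrane and sorting proteins in the table, 10 were called lower, IGF2R and TFEB among them, and 2 higher, with a median log2 change of -0.46. M6PR, the small mannose 6-phosphate receptor, had 285 CPM on Day 10 and 191 CPM on Day 12, a log2 change of -0.76, also under the size called. TFE3, a relative of TFEB, was called higher, from 8.41 to 19.6 CPM.

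NAAA, a lysosomal hydrolase of fatty acid ethanolamides, had a median of 457 CPM on Day 8, 222 CPM on Day 10 and 3.44 CPM on Day 12, where its range was 2.38 to 9.89 CPM. FAAH, which breaks down the same class of lipids outside the lysosome and was picked after its values were seen, had means of 79.9, 43.3 and 4.91 CPM. CLN6, an endoplasmic reticulum protein needed for the export of lysosomal enzymes, had means of 377, 390 and 84.1 CPM. CLN8, its partner, stood just outside the rule with 665 CPM on Day 8 and 327 CPM on Day 10, a ratio of 2.03, and 22.05 CPM on Day 12. AGFG1, an adaptor of the endocytic coat, had the smallest SD of log2 CPM on Day 10 of the 112 genes, 0.0576, at 343 to 382 CPM, and had 61.9 to 98.8 CPM on Day 12.

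Of the proton pump that acidifies lysosomes, no subunit was among the 112. Of its 22 subunits in the table, 4 were called lower and 2 higher between Days 10 and 12, and none lower with library size alone. Among 47 genes listed as endocytic receptors and adaptors, 7 were called lower and 11 higher, with a median log2 change of -0.13. None of the 47 was among the 112, since the list does not hold AGFG1 and HIP1, which are. Of 27 genes of melanosomes and lysosome-related organelles, none of them among the 112, 3 were called lower and 0 higher.

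**Figure D3:**
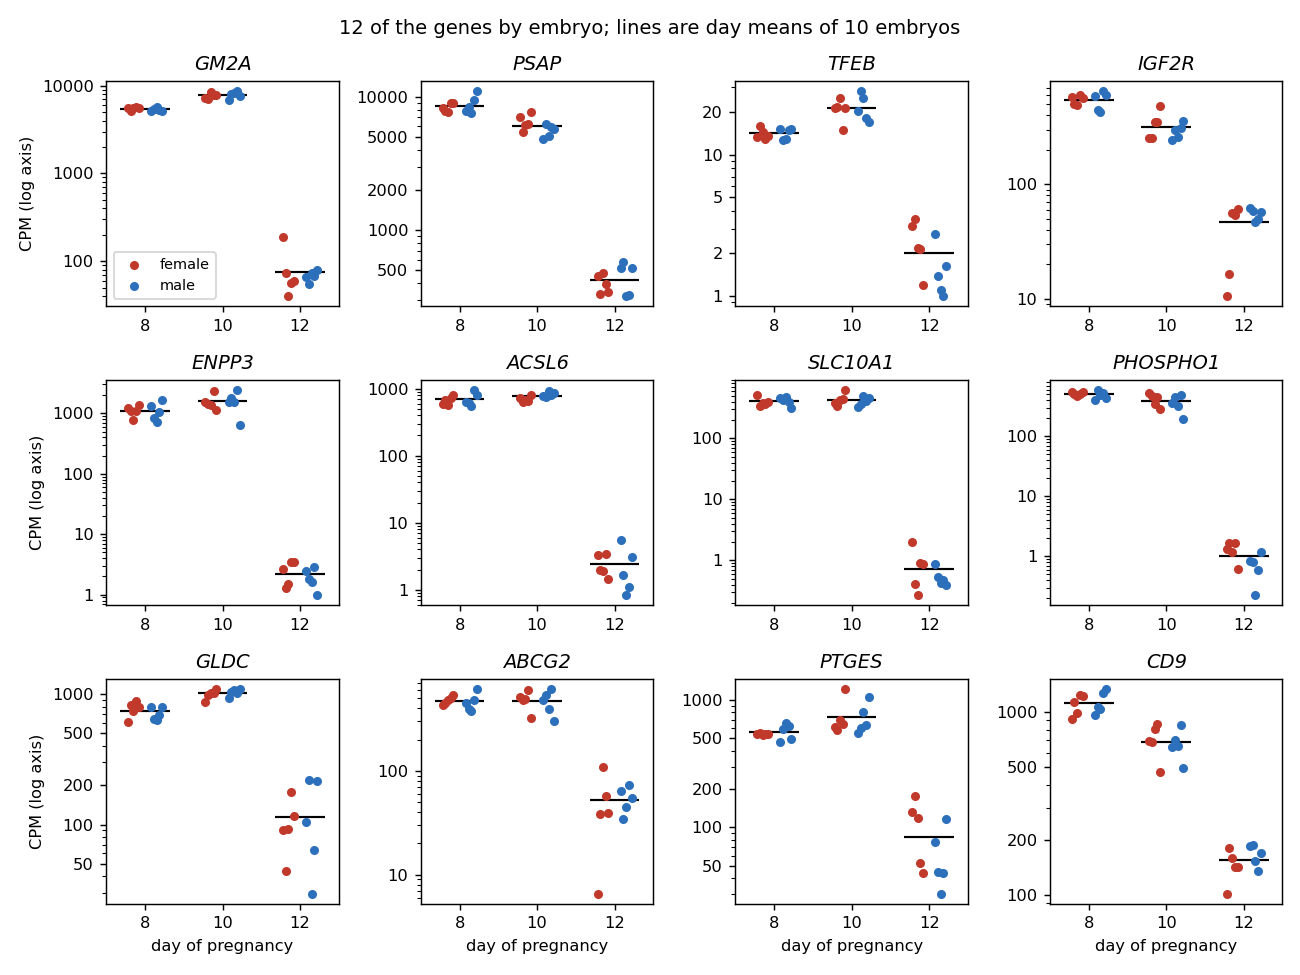
CPM of 12 of the genes in each embryo (log axes, which differ between panels), female embryos left and male embryos right within a day, with a line at the mean of the 10 embryos. All Day 12 embryos lie below all Day 10 embryos in each of the 12 panels, as in IGF2R, where the lowest Day 10 embryo had 244 CPM and the highest Day 12 embryo 62.0 CPM.

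Enzymes of membrane lipids and lipid mediators formed a group of 16 genes with a median difference of 9.14-fold. ACSL6, which activates long-chain fatty acids, ranged from 551 to 953 CPM on Day 8, from 639 to 929 CPM on Day 10 and from 0.841 to 5.45 CPM on Day 12. PHOSPHO1, a phosphatase of phosphocholine and phosphoethanolamine, ranged from 403 to 589 CPM, from 190 to 523 CPM and from 0.229 to 1.66 CPM on the same days. Both were at less than 1% of their Day 10 mean on Day 12, at 0.317% and 0.26%, and no Day 12 embryo came near an earlier one. The noncoding gene LOC102158609 lies 119588 bases from PHOSPHO1 on chromosome 12 with 6 genes between them, and had means of 293, 229 and 0.6 CPM.

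PTGES, a terminal synthase of prostaglandin E2, ranged from 467 to 659 CPM on Day 8, from 545 to 1218 CPM on Day 10 and from 30.3 to 177 CPM on Day 12. STS, which frees steroids from their sulfates, ranged from 369 to 537 CPM, from 433 to 583 CPM and from 11.01 to 33.6 CPM. For both genes all Day 12 embryos lay under all earlier ones. B4GALT5, which makes lactosylceramide, had means of 743, 673 and 135 CPM, and SMPD3, a neutral sphingomyelinase, 5.15, 3.91 and 0.888 CPM. The ranges of SMPD3 overlapped between days, at 1.39 to 7.06 CPM on Day 10 and 0.165 to 3.22 CPM on Day 12. Of 44 genes of sphingolipid metabolism, 9 were called lower, these 2 included, and 6 higher, with a median log2 change of -0.06.

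Genes of phospholipid turnover were among them. CDS1, which makes CDP-diacylglycerol, had means of 154, 283 and 30.6 CPM, DGKZ, a diacylglycerol kinase, 246, 437 and 61.2 CPM, and LPCAT4, a lysophospholipid acyltransferase, 164, 97.9 and 20.6 CPM. CDS1 and DGKZ had their highest mean on Day 10 and LPCAT4 on Day 8. Of 42 genes of glycerolipid and phospholipid synthesis, 12 were called lower and 6 higher, with a median of -0.27. None of the 112 was on the lists of peroxisomal enzymes and transporters (44 genes, 7 lower and 2 higher) and of mitochondrial fatty acid oxidation (28 genes, 2 lower and 3 higher). PLCD4, a phospholipase C, stands in the table as 2 gene entries 9723 bases apart on chromosome 15, with Day 10 means of 32.4 and 7.99 CPM and Day 12 means of 2.08 and 0.307 CPM, and its counts are uncertain where reads fit both.

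Transporters, channels and their scaffold had the highest median difference of the 9 role groups, 15.9-fold over 11 genes. SLC10A1 (chromosome 7: 93400037-93421989), the sodium-dependent bile acid uptake carrier of the liver, ranged from 317 to 508 CPM on Day 8, from 329 to 620 CPM on Day 10 and from 0.273 to 1.98 CPM on Day 12. On Day 12 it was at 0.167% of its Day 10 mean, and the highest Day 12 value was in d12_f_245. ABCG2, an efflux pump for drugs and steroid conjugates, ranged from 375 to 611 CPM, from 302 to 616 CPM and from 6.59 to 110 CPM, and d12_f_245 was this time the lowest. ABCG2 and the noncoding LOC110262192 overlap on chromosome 8, so that their counts are uncertain if reads were not counted by strand. Of 30 bile acid and liver-type secretory genes, SLC10A1 and ABCG2 were the only ones called lower, and 14 were called higher, with a median log2 change of 1.25. RBP4 rose from 17.5 to 256 CPM and APOA1 from 853 to 2734 CPM.

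SLC30A2, a zinc exporter into vesicles, ranged from 145 to 246 CPM on Day 8, from 40.8 to 372 CPM on Day 10 and from 0.403 to 9.08 CPM on Day 12, with d12_m_307 far above the next embryo at 2.86 CPM. SLC31A2, a copper transporter of endosomes, had means of 69.2, 85.8 and 3.59 CPM, and SLC8B1, the sodium-calcium exchanger of mitochondria, 99.9, 69.6 and 11.5 CPM. SLC9A3R1, a scaffold that holds transporters at microvilli, ranged from 888 to 1252 CPM, from 583 to 917 CPM and from 68.1 to 368 CPM. SLC35E4, of the nucleotide sugar carrier family, was the member nearest the 2-fold limit, with means of 65.4 and 130 CPM on Days 8 and 10 and 6.48 CPM on Day 12. Of all 249 solute carrier genes in the table, 37 were called lower and 63 higher, with a median log2 change of 0.14. AQP9, a water and glycerol channel picked after its values were seen, had 4.15 to 20.4 CPM on Day 10 and at most 0.25 CPM on Day 12. FAM26E and FAM26D, now named among the calcium homeostasis modulator channels, overlap on chromosome 1, so that their counts are uncertain where reads fit both. They had Day 10 means of 202 and 4.64 CPM and Day 12 means of 19.96 and 0.292 CPM.

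Among the metabolic enzymes, ENPP3 (chromosome 1: 31859180-31932617), a cell-surface enzyme that cleaves extracellular nucleotides, showed the widest difference of the 107 genes over 3 counts in some Day 12 embryo, at 706-fold. It ranged from 721 to 1649 CPM on Day 8, from 652 to 2428 CPM on Day 10 and from 0.994 to 3.50 CPM on Day 12. GLDC, the decarboxylase of the glycine cleavage system, ranged from 611 to 885 CPM, from 863 to 1098 CPM and from 29.5 to 219 CPM, so that its Day 12 embryos spread by more than its Day 10 embryos. ALDH4A1, of proline breakdown, had means of 130, 189 and 7.56 CPM, and AASS, which starts lysine breakdown, 6.23, 5.08 and 0.312 CPM. AASS was uneven on Day 10, from 0.152 CPM in d10_f_317 to 13.5 CPM in d10_m_453, and overlapped with Day 12. Of 55 enzymes of amino acid breakdown and one-carbon metabolism, 10 were called lower, these 3 included, and 11 higher, with a median log2 change of -0.15.

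MIOX, which opens the inositol ring, ranged from 9.16 to 25.3 CPM on Day 8 and from 1.51 to 28.7 CPM on Day 10. On Day 12 it had 3 counts in all over 10 embryos, in 2 of them. With the counts of a day pooled, the difference was 954-fold with a 95% counting interval (exact Poisson) of 326 to 4625. As a ratio of mean CPM it was 1470-fold. RGN, a lactonase of ascorbate synthesis that also binds calcium, had means of 348, 189 and 27.4 CPM. Of 15 genes of ascorbate, inositol and uronic acid metabolism, 5 were called lower and 1 higher. GALNT11, which starts O-glycans, had means of 895, 465 and 55.0 CPM, and TXNDC16, a thioredoxin-domain protein, 436, 571 and 95.1 CPM. The list of cytochromes P450, transferases and other xenobiotic enzymes held none of the 112, and 6 of its 32 genes were called lower and 12 higher.

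The 14 adhesion and cytoskeletal genes had a median difference of 9.58-fold between Days 10 and 12. CD9, a tetraspanin of the cell surface, ranged from 912 to 1339 CPM on Day 8, from 471 to 855 CPM on Day 10 and from 102 to 187 CPM on Day 12. LIMA1, which bundles actin at junctions, had means of 106, 199 and 18.4 CPM, and EPPK1, a large plakin bound to keratin filaments, 286, 236 and 56.2 CPM. EPPK1 was close to the limit of 0.25. ADAM19, a membrane metalloprotease, ranged from 287 to 411 CPM, from 290 to 598 CPM and from 5.47 to 27.6 CPM.

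No desmosomal gene was among the 112, yet 9 of the 12 in the table were called lower on Day 12 and 1 higher, with a median log2 change of -1.85. PKP1, a desmosomal plaque protein, missed the rule because its Day 10 mean of 275 CPM was 2.01 times that of Day 8, and it had 8.00 CPM on Day 12. DSP, the main desmosomal linker to keratin, went from 1029 to 290 CPM. Of 45 genes of tight and adherens junctions and polarity, 2 were called lower and 13 higher, and of 28 of microvilli and brush border, 9 lower and 13 higher.

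Transcription factors and pluripotency genes of the set were mostly low. NANOG, a core factor of the epiblast, ranged from 2.07 to 6.25 CPM on Day 8, from 0.942 to 2.83 CPM on Day 10 and from 0 to 0.156 CPM on Day 12, where it had 11 counts in all. EOMES, a T-box factor of early lineages, ranged from 1.73 to 4.10 CPM, from 0.678 to 3.38 CPM and from 0 to 0.0865 CPM, with 8 counts in all on Day 12. With the counts of a day pooled, the difference was 39.5-fold (95% counting interval 22.1 to 79.0) for NANOG and 65.1-fold (33.0 to 151) for EOMES. NANOG had the lowest Day 10 mean of the 112 genes, 2.06 CPM, just over the limit of 2.

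ASCL2, a trophoblast factor, ranged from 16.4 to 42.5 CPM on Day 8, from 20.5 to 33.8 CPM on Day 10 and from 0 to 3.96 CPM on Day 12. TEAD2, a partner of the Hippo pathway, had means of 5.07, 2.76 and 0.608 CPM. DPPA2, an early embryo chromatin protein, had 39.7 to 49.4 CPM on Day 8, 41.7 to 77.7 CPM on Day 10 and still 5.93 to 13.4 CPM on Day 12. ERAS, a Ras protein of embryonic stem cells, had means of 4.18, 2.35 and 0.115 CPM. Of 29 naive pluripotency and early embryo genes, 14 were called lower, DPPA2, ERAS and NANOG among them, and 5 higher, with a median of -0.68. POU5F1 fell from 13.2 to 1.84 CPM and ESRRB from 66.6 to 0.241 CPM, both already lower on Day 10 than on Day 8 by more than the rule allows. Of 94 epithelial and lineage transcription factors, 16 were called lower and 31 higher.

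Other genes of the set, picked here after their values were seen, lay between these extremes. Among vesicle genes, HIP1, an endocytic adaptor, had means of 186, 117 and 21.2 CPM on Days 8, 10 and 12, SNX18, a sorting nexin, 217, 152 and 31.2 CPM, and RAB3IL1, an exchange factor for Rab proteins, 101, 105 and 9.92 CPM. RBP2, an intracellular retinol carrier known from the gut, was uneven between embryos on Day 8, at 14.47 to 120 CPM, had 43.9 to 148 CPM on Day 10 and 0.208 to 4.02 CPM on Day 12. GYG1, which primes glycogen, had means of 141, 134 and 22.4 CPM. STEAP4, a metal reductase, had 8.52, 8.85 and 0.309 CPM.

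Further genes of chromatin and transcription, also picked after their values were seen, were MLLT3, a subunit of the super elongation complex, with means of 54.7, 59.6 and 2.88 CPM, and PARP2, of DNA repair, with 87.7, 79.4 and 14.8 CPM. MLLT3 had 1.59 to 6.62 CPM on Day 12, far under its 48.7 to 72.2 CPM on Day 10. LMO1, a LIM-only cofactor, had means of 52.5, 75.9 and 10.04 CPM, and YBX2, a germ cell RNA-binding protein, 6.74, 6.76 and 1.07 CPM. Among proteases, CAPN5, a calpain, had 83.6, 83.3 and 9.87 CPM. ENPEP, the surface aminopeptidase A, had 6.57, 5.72 and 1.29 CPM and overlapped between days, with d12_m_275 at 4.92 CPM.

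The signalling genes included adaptors known from lymphocytes. FYB, an adaptor of T cell receptor signalling, ranged from 43.1 to 66.6 CPM on Day 8 and from 9.11 to 79.4 CPM on Day 10. It had 11 counts in all on Day 12. With the counts of a day pooled, the difference was 913-fold (95% counting interval 510 to 1829), and as a ratio of mean CPM 610-fold. BLNK, the B cell linker, had 23.9 to 59.9 CPM on Day 8, 62.0 to 91.2 CPM on Day 10 and 0.0382 to 14.6 CPM on Day 12. Both were seen in every Day 8 and Day 10 embryo, and GRAP, another such adaptor, picked after its values were seen, had means of 30.4, 26.98 and 0.667 CPM. The leukocyte markers PTPRC, CD3E, CD2, CD14, CSF1R and CD79A were not in the table. ADGRG6, an adhesion receptor, had means of 66.8, 101 and 12.5 CPM, and NKD2, an inhibitor of Wnt signalling, 6.98, 7.05 and 1.40 CPM, both picked after their values were seen. PRKCA, a protein kinase C, stood at the edge of the rule, with a Day 12 mean of 26.97 CPM, 0.25 of its Day 8 mean of 108 CPM.

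**Figure D4:**
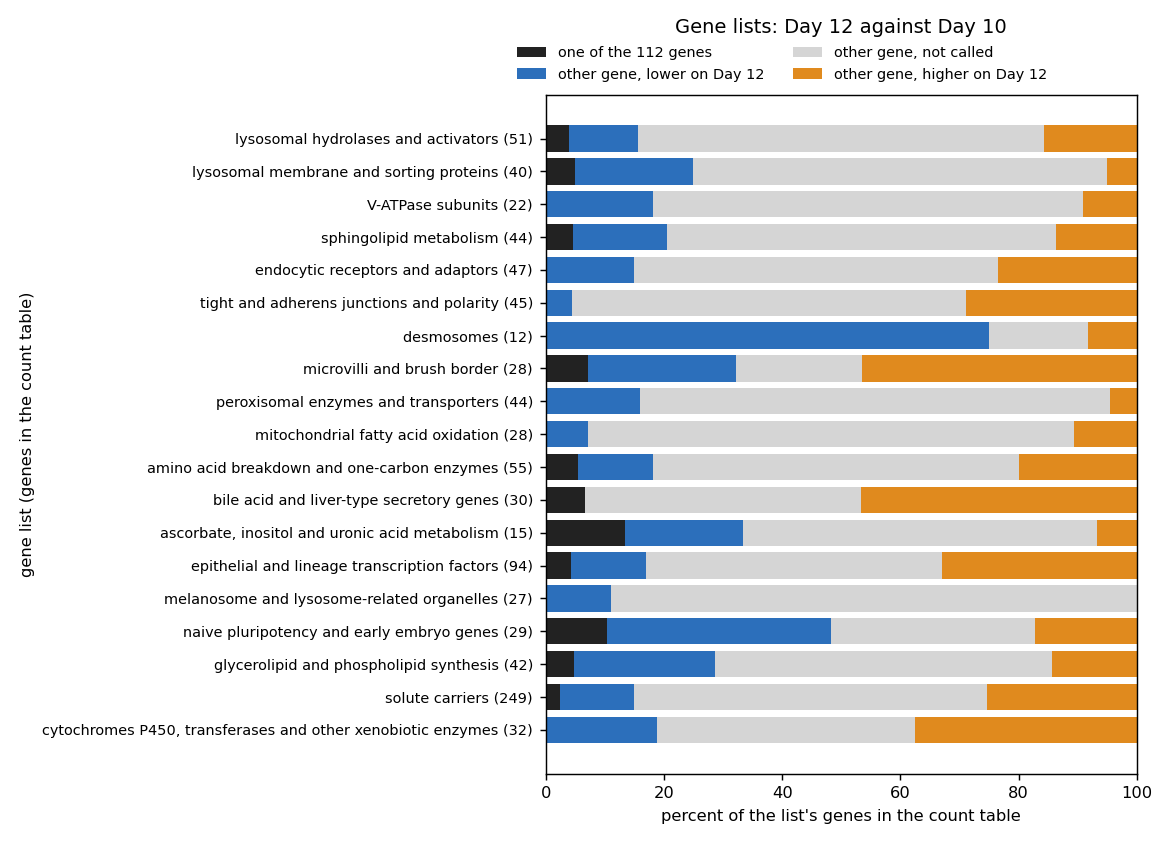
For 19 gene lists, the percent of each list's genes in the count table that were among the 112 genes, or were other genes called lower, not called or called higher on Day 12 against Day 10 (edgeR, FDR under 0.001 and log2 beyond 1). Desmosomes show the largest lower share, 9 of 12 genes and none of the 112, and bile acid and liver-type genes no lower call beside SLC10A1 and ABCG2.

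Some genes met the rule through few embryos. ADCY1, an adenylate cyclase, had a median of 0.167 CPM on Day 8 and 0.0907 CPM on Day 10. It reached 50.4 CPM in d10_m_321, where the next Day 10 embryo had 0.154 CPM. On Day 8 it reached 14.0 CPM in the female d08_f_105 (297 counts). The Day 8 females d08_f_129 and d08_f_130 had 96 and 94 counts, and the other Day 8 embryos at most 4. Its course over days is thus that of few embryos. LOC110261130 had 20 CPM in d08_m_103 and at most 6.15 CPM in the other Day 8 embryos. Leaving out 1 embryo at a time, 92 of the 112 genes met the rule throughout, and 20, ADCY1 and PRKCA among them, missed it at least once. Both sexes alone gave 75 genes in common.

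The limits of the rule cut through continuous values. Of Day 12 over the lower earlier mean, LOC100524679, DGKZ and PRKCA lay just inside at 0.244, 0.248 and 0.25, and C8H4orf46, MCOLN2 and LOC100522421 just outside at 0.253, 0.254 and 0.257. A further 33 genes lay between 0.25 and 0.3. Of the ratio between Days 8 and 10, ADCY1, ADAMTSL2 and SLC35E4 were inside at 1.93, 1.94 and 1.99, and PKP1, CLN8 and MOSPD1 outside at 2.01, 2.03 and 2.16. Of the lower earlier mean, GPR1, TTC39B and NANOG were inside at 2.12, 2.07 and 2.06 CPM, and CA8, UNC13A and GDA outside at 1.96, 1.79 and 1.74 CPM.

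The spread between embryos of a day was wider at the median of these genes than at that of all genes, on each day. The median SD of log2 CPM within a day was 0.279, 0.362 and 0.755 over the 112 genes on Days 8, 10 and 12, and 0.23, 0.305 and 0.457 over all genes. Among genes of at least 10 CPM on the day, it was 0.224, 0.317 and 0.574 against 0.161, 0.235 and 0.372. BLNK spread most on Day 12, with an SD of 2.17, and the male d12_m_276 was lowest in 30 genes, at a median deviation of -0.43 from the day mean on the log2 scale. The male d12_m_307 was highest, at a median deviation of 0.32. The deviation of all genes was -0.15 in the former and 0.10 in the latter. d12_f_245, with the fewest counts, was lowest in 33 genes and highest in 30. On Day 10, d10_m_453 was lowest in 29 genes, with a median deviation of -0.23.

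Sex of the embryo did not enter the rule, so that it could be tested. On Day 8, 2 of the 111 genes in that day's table were called at an FDR under 0.05 (edgeR quasi-likelihood test, Benjamini-Hochberg), against 0.658% of all genes, and both are X-linked and were higher in female embryos. A further 10 had an unadjusted p under 0.05, 12 of 111 in all or 10.8%, against 4.59%. AASS, which is not X-linked, was called by the robust GLM, with a log2 fold change of 1.14 (robust GLM adjusted p = 0.0157). MTM1 (X: 122286904-122379302), a phosphatase of endosomal phosphoinositides, had 41.3 ± 3.09 CPM in females and 27.8 ± 4.04 CPM in males (SD, n = 5 each), without overlap, a log2 fold change of 0.56 ± 0.101 SE (edgeR adjusted p = 0.0273). ERAS (X: 42942033-42946715) had 6.16 ± 2.08 CPM in females and 2.20 ± 0.917 CPM in males, also without overlap, a log2 fold change of 1.48 ± 0.285 SE (edgeR adjusted p = 0.0344). These were the 2 genes whose females and males did not overlap on Day 8, against 1.57% of all genes. With 1 embryo left out, MTM1 was called in 2 of 10 fits and ERAS in 1 of 10, with edgeR adjusted p of 0.0153 to 0.0963 and 0.00824 to 0.0998, and both stayed higher in females.

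On Day 10 no gene of 111 was called, against 0.223% of all genes, and 5 had an unadjusted p under 0.05, or 4.5%, against 2.36%. MTM1 had 42.6 ± 5.71 CPM in females and 29.4 ± 3.90 CPM in males, again without overlap, as in 2 of 111 genes against 0.737% of all (edgeR adjusted p = 0.0828), and it was called by DESeq2 and by the robust GLM, 1 gene each. ERAS had 2.42 ± 0.811 CPM in females and 2.28 ± 0.463 CPM in males, a log2 fold change of 0.06 ± 0.242 SE. On Day 12, 78 of the 112 genes were in the day's table, which leaves out the lowest. None was called by edgeR, DESeq2 or the robust GLM, against 0.123% of all genes by edgeR, and 13 had an unadjusted p under 0.05, or 16.7%, against 22.7%. The sexes overlapped in each of the 78, and 3.85% of all genes did not overlap. MTM1 then had 7.93 ± 2.34 CPM in females and 8.56 ± 1.10 CPM in males.

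In the 6-group fit, no change over days differed between the sexes at an FDR under 0.05 by edgeR, as was so for all 13103 genes. From Day 8 to Day 10, 3 of the 112 genes had an unadjusted p under 0.05, against 0.763% of all genes, and from Day 10 to Day 12, 12 had, against 18.9%. DESeq2 called 1 gene, ADCY1, from Day 8 to Day 10, and none from Day 10 to Day 12. ADCY1 rests on d10_m_321 and on the Day 8 females d08_f_105, d08_f_129 and d08_f_130. Without the Day 12 female d12_f_299, edgeR called 4 from Day 10 to Day 12, namely C8H4orf48, GRAP, MTM1 and TEAD2, in a fit that called 1111 of all 13103 genes.

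**Figure D5:**
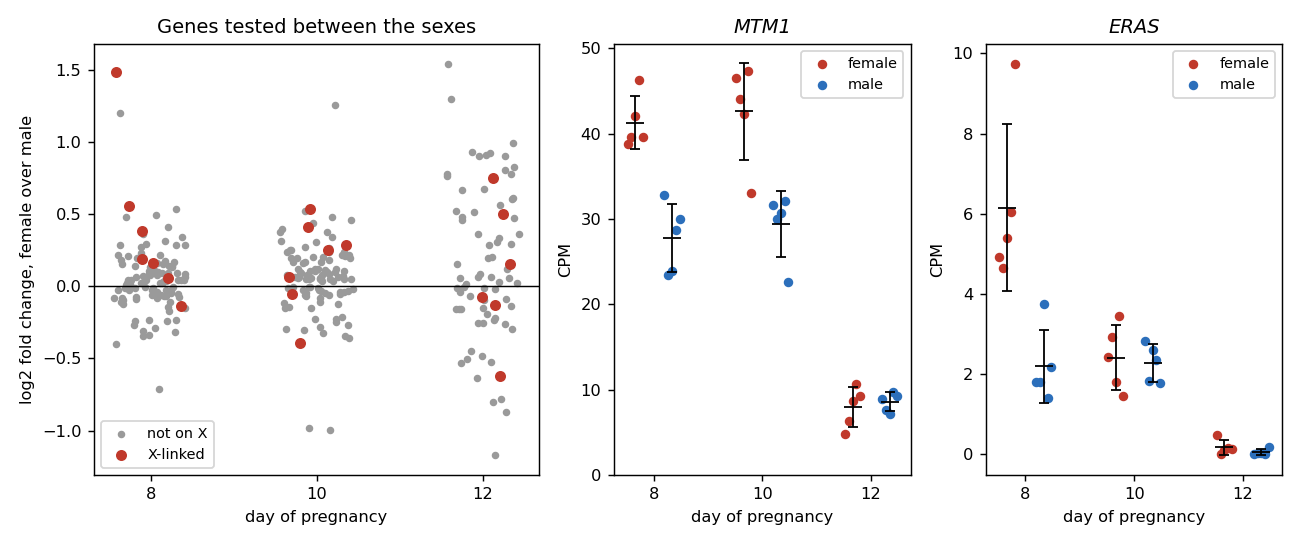
Left, log2 fold change of female over male embryos for each gene in a day's table, with the X-linked genes in red. Middle and right, CPM of MTM1 and ERAS in each embryo with mean ± SD (5 embryos per sex and day). Female and male embryos are apart on Days 8 and 10 for MTM1 and on Day 8 for ERAS.

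The X chromosome carries 7 of the 112 genes, 6.25%, against 3.35% of all genes in the table. They are STS, RGN, RENBP, POF1B, MTM1, ERAS and LOC106506137. Of these, 6 were higher in females on Day 8 (median log2 fold change 0.19), against 61 of the 104 other genes (median 0.03). On Day 10 it was 5 of 7 (median 0.25) against 65 of 104 (median 0.06), and on Day 12 it was 3 of 6 (median 0.04) against 41 of 72 (median 0.06). STS, whose human copy escapes X inactivation, had 405 ± 26.2 CPM in females and 440 ± 84.5 CPM in males on Day 8 and was called on no day. POF1B, an actin-binding protein, was among those lower in females on Day 10, at 42.8 ± 3.24 CPM in females and 56.3 ± 6.13 CPM in males, without overlap but not called. LOC110257938 is placed on the Y chromosome by the annotation, yet on Day 10 its level was 132 ± 22.4 CPM in females and 147 ± 18.6 CPM in males, so that its place or its reads are uncertain.

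The genes were spread over the genome, with some close neighbours. Chromosome 1 carries 19 of them, 16.96%, against 8.55% of all genes in the table. There were 12 pairs less than 500000 bases apart, the overlapping pairs included. SLC30A2 and CRYBG2 lie 242088 bases apart on chromosome 6 with 11 genes between them, and SLC10A1 and PLEKHD1 212307 bases apart on chromosome 7 with 4.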

How the data were processed

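Tables of read counts as deposited, with no normalization, were used. The authors had trimmed the reads of the stranded single-end libraries, mapped them to Sscrofa11.1 and removed genes under a CPM limit. The counting tool and its strand setting are not given in the sources used here. One table holds 13103 genes of all 30 embryos, the others 11405, 11675 and 12220 genes of Days 8, 10 and 12. All gene identifiers matched a symbol in the RefSeq gene table of that assembly, the source of positions. No sequences were used.

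CPM is the count over the embryo's total. Tests used edgeR 4.0.16 (R 4.3.3, limma 3.58.1), the quasi-likelihood F test with TMM factors, robust dispersion and Benjamini-Hochberg adjustment over all genes of a table, with DESeq2 1.42.0 as an alternative, and were tested on simulated data. The SE is the log2 fold change over the square root of F. Days used an FDR under 0.001 and a log2 change beyond 1, the sexes an FDR under 0.05. The floor is 3 counts, and intervals and floors cover counting error only. Fold differences given with an interval use counts pooled over the embryos of a day, and the others are ratios of day means in CPM. Python 3.11.15 with numpy 2.4.6, pandas 2.3.3 and matplotlib 3.10.9 was used for the rest.

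The genes, the 19 gene lists and the marker lists were chosen with earlier results of these data known, and the role groups after the genes were known. Genes named are the 30 with the highest Day 10 mean, up to 8 per list, the 5 lowest and 5 highest ratios of Day 12 to Day 10, those at the limits of the rule, those called between the sexes and the 5 of largest spread on Days 10 and 12. Others were picked after their values were seen, and list genes outside the 112 as examples. No test compared the genes between days as evidence, and levels of different genes were not scaled by length. Some genes that the naming rule covers are not reported here.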

Additional observations from a re-analysis of the deposited data

Results flagged for a closer look

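In 174 groups of 10 embryos (58 named genes on 3 days), 25 had a highest or lowest embryo whose gap to the next was large against the range of the day (Dixon's criterion at the 95% level), or 14.4%. Chance flags about 1 in 20 groups, a rate that does not apply here, since some of the genes were named for their spread between embryos and some values stand for 2 or 3 counts. Of the 25 values, 9 came from the Day 12 female d12_f_245, the library with the fewest counts. It was highest for GM2A (187 CPM), SLC10A1 (1.98 CPM), CLN6 (161 CPM), NAAA (9.89 CPM), LPCAT4 (54.2 CPM), FYB (0.494 CPM), RNASE12 (0.494 CPM) and ERAS (0.494 CPM), and lowest for SLC31A2 (0.824 CPM). The values of 0.494 CPM stand for 3 counts in this library.

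On Day 12, d12_m_307 was highest for GALNT11 (69.8 CPM), SLC30A2 (9.08 CPM) and ALDH4A1 (21.3 CPM). d12_f_297 was highest for MIOX (0.0665 CPM, 2 counts), d12_m_275 for ENPEP (4.92 CPM) and d12_f_289 for SMPD3 (3.22 CPM). On Day 10, d10_f_433 was highest for GALNT11 (722 CPM) and TEAD2 (4.54 CPM), d10_f_454 for IGF2R (479 CPM), d10_f_317 for ALDH3B1 (30.6 CPM), d10_m_333 for PRTG (11.8 CPM) and d10_m_321 for ADCY1 (50.4 CPM). On Day 8, d08_m_111 was highest for SLC8B1 (127 CPM), d08_m_136 for PRTG (19.0 CPM), d08_f_105 for ADCY1 (14.0 CPM) and d08_m_103 for LOC110261130 (20 CPM).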

How the results depend on the processing

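The rule gave 125 genes with TMM-scaled CPM and with DESeq2 size factors (106 of the 112 in each), 119 with medians, 113 and 114 in female and male embryos alone, 79 within 1.5-fold and 53 with Day 12 at most an eighth. Without 1 embryo it gave 105 to 121. Between Days 8 and 10, library size alone called 0 members against 4. Between the sexes on Day 8, leaving out 1 embryo gave 0 to 1 calls against 2, and on Day 10 the robust GLM and DESeq2 gave 1 each against 0. For the interaction from Day 8 to Day 10, DESeq2 gave 1 call and leaving out 1 embryo 0 to 1 (ADCY1). From Day 10 to Day 12, leaving out 1 embryo gave 0 to 4, with 4 only without d12_f_299, where 1111 of all 13103 genes were called. With 10 counts or fewer as the floor, 12 genes were at it in every Day 12 embryo against 5. Summed Day 10 CPM was 34857 with TMM. Without the 10 highest genes the sums were 11700, 11032 and 1174 CPM on Days 8, 10 and 12. The cause of these shifts was not tested. The call of ADCY1 from Day 10 to Day 12 was lost with the robust GLM and with sex as a term. The other 146 values of the main results were equal to the main value or within 1.5-fold of it. Counts near the floor limit the Day 12 levels of the lowest genes. No paired analysis was possible because the labels give each embryo its own number and no shared litter or replicate. The authors state that at least a female and a male embryo of each stage came from the same sow. The sexes thus shared dams in part, and which embryos did is not known.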
